A study of Mus musculus with 10 samples.

Results

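Cell cycle and mitosis genes were described in Affymetrix arrays of hearts and ventricular cardiomyocytes from mice with a knockdown of VAChT, the vesicular acetylcholine transporter that loads acetylcholine into synaptic vesicles. The set was a list of 50 symbols, and its members were the genes whose probe sets the platform annotation gives that symbol alone, with the brightest probe set kept where there were several. By this rule 49 of the 50 were measured, out of 19938 genes in all, and Ccnb1 (cyclin B1) had no such probe set. The arrays covered 2 whole-heart samples of VAChT KD mice, 2 whole-heart samples of WT mice, 3 ventricular cardiomyocyte samples of VAChT KD mice and 3 of WT mice. All mice were C57BL/6 males aged 3 months without treatment, and each array held RNA pooled from 2 RNA samples. The series title calls the knockdown animals VAChT KDHOM, and the altered allele is not described further in the labels. Values are log2 intensities, so a difference of 1 is a factor of 2.

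Dividing cells commit to a cycle through D-type cyclins with CDK4 and cyclin E with CDK2, which release E2F factors, copy their DNA with the MCM helicase and the PCNA clamp, and then enter mitosis under cyclin A, cyclin B and CDK1. Genes of S phase are typical E2F targets, and genes of mitosis are switched on later, many of them by the MuvB complex with B-MYB and FOXM1. Most cardiomyocytes of the adult mouse heart have left the cycle, while thymocytes, haematopoietic precursors and some stromal cells divide.

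KD and WT arrays of a kind had like medians, between 7.54 and 7.59 in hearts and between 6.19 and 6.27 in cardiomyocytes. Markers of ventricular cardiomyocytes were bright on all 10 arrays, with a mean over 11 genes between 13.14 and 13.40. On the cardiomyocyte arrays all 9 endothelial markers were above the array median too, with a mean between 8.78 and 9.08. Slc18a3, the gene of VAChT itself, was not lower in KD samples, at 7.31 and 7.84 in KD hearts against 7.34 and 7.72 in WT hearts, and its difference in cardiomyocytes was 0.16 ± 0.16 (SE). The 2 KD hearts were less alike than the 2 WT hearts, with correlations over all genes of 0.98 and 0.993. KD heart 1 had 188 genes at least 2-fold above the mean of the WT hearts, where KD heart 2 had 9. For the members as a set, results in hearts are therefore also given without KD heart 1. Other differences in hearts are those of the mean of both KD hearts, unless an array is named.

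In whole hearts, 46 of the 49 cell cycle genes were higher in KD and 3 were lower, where 52.5% of all genes were higher. The median difference over the members was 0.36, while that over all genes was 0.01. None passed the test: limma called 0% of the 19938 genes at an adjusted p of 0.05, and the lowest adjusted p among the members was 0.713. At an unadjusted limma p under 0.05, 19 members were higher and 0 lower, against 2.44% and 2.49% of all genes. In 23 members both KD hearts lay above both WT hearts, and in 0 both lay below, where 14.2% and 15.4% of all genes did so.

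The members were high mainly in KD heart 1. Set against the mean of the 2 WT hearts, KD heart 1 had a median difference over the members of 0.67, with a range of -0.10 to 2.74. It lay above both WT hearts for 45 of 49 members, as 26.7% of all genes did, and was the highest of the 4 hearts for 45, as for 17.9% of all genes. There, 16 members were at least 2-fold above the WT mean, a distance reached by 0.943% of all genes. KD heart 2 had a median difference of 0.07, with a range of -0.44 to 0.54. It lay above both WT hearts for 24 members and below both for 12, where 45.8% and 30.5% of all genes did so. In KD heart 2, 0 members were 2-fold above the WT mean, where 0.0451% of all genes were.

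**Figure D1:**
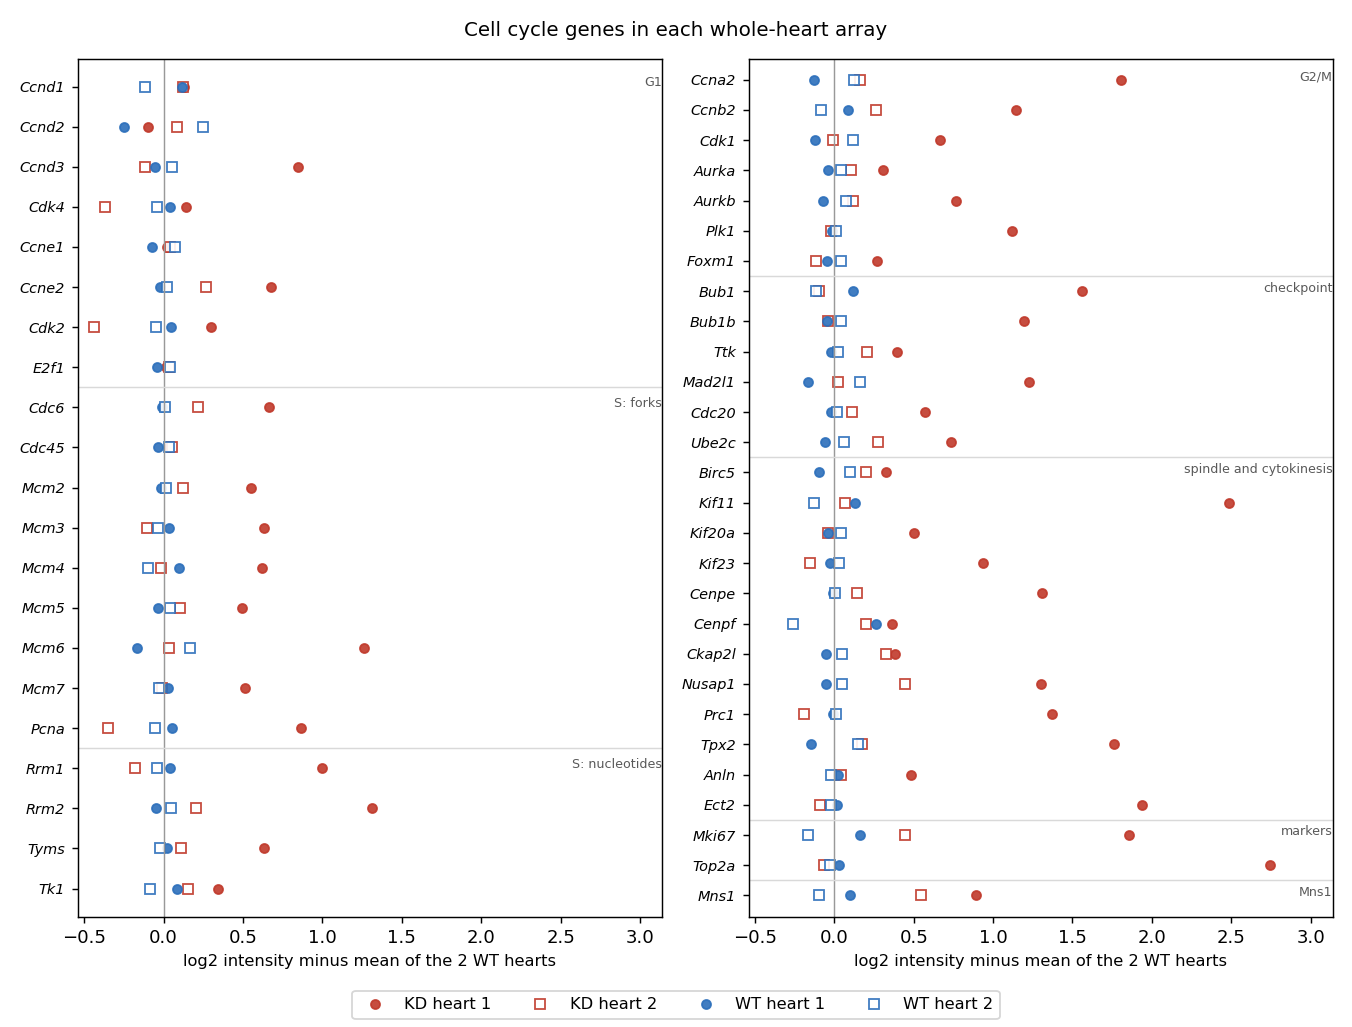
Each row is a gene, grouped by role, and the x axis is its log2 intensity in each heart array minus the mean of the 2 WT hearts. Filled red circles are KD heart 1, open red squares KD heart 2, filled blue circles WT heart 1 and open blue squares WT heart 2. KD heart 1 is the highest array in 45 of the 49 genes and reaches 2.74 for Top2a, while KD heart 2 stays between -0.44 and 0.54.

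The G1 genes had the smallest differences of the lists by role. Of the 8 members, 5 were higher and 3 lower in KD hearts, with a median difference of 0.03, and the median was 0.14 in KD heart 1 and 0.04 in KD heart 2. Ccnd3, cyclin D3, a partner of CDK4 and CDK6, was at 9.84 and 8.88 in KD hearts against 8.94 and 9.05 in WT hearts. Its KD hearts lay on either side of the WT hearts. Cdk2, the kinase of cyclins E and A, was at 8.47 and 7.73 in KD hearts against 8.22 and 8.12 in WT hearts, again with WT in between. Ccne2, cyclin E2, was at 7.32 and 6.91 in KD hearts against 6.62 and 6.67 in WT hearts, and was above WT in both (0.47 ± 0.16 SE, limma adjusted p = 0.950). The cyclins Ccnd1, Ccnd2 and Ccne1, the kinase Cdk4 and the factor E2f1 differed by between -0.11 and 0.13. Cdk4 was lower in KD heart 2, at 10.32, than in the other 3 hearts, which were at 10.83 (KD heart 1), 10.73 and 10.65 (WT).

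The replication fork genes were all higher in KD hearts, 9 of 9, with a median difference of 0.30, or 0.62 in KD heart 1 and 0.04 in KD heart 2. Mcm6, a subunit of the MCM helicase that opens the double strand, was at 8.50 and 7.27 in KD hearts against 7.06 and 7.40 in WT hearts. Pcna, the sliding clamp of DNA polymerases, was at 10.27 and 9.06 in KD hearts against 9.46 and 9.35 in WT hearts. Mcm3, another helicase subunit, was at 8.22 and 7.49 in KD hearts against 7.62 and 7.56 in WT hearts. For Mcm6, Pcna and Mcm3 only KD heart 1 was high, and KD heart 2 lay among or below the WT hearts. Mcm2, Mcm4, Mcm5 and Mcm7, further subunits of the helicase, differed by between 0.25 and 0.34. In KD heart 2, Mcm4 and Mcm7 were at -0.02 and -0.01 from the WT mean, and Mcm2 and Mcm5 at 0.12 and 0.10. Cdc6, which loads the helicase onto origins, differed by 0.44 and was above WT in both KD hearts, at 7.59 and 7.13 against 6.91 and 6.93. Cdc45, which activates the helicase, differed by 0.04.

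The 4 genes of nucleotide synthesis were also all higher, with a median difference of 0.39. The median was 0.82 in KD heart 1 and 0.13 in KD heart 2. Rrm2, the small subunit of ribonucleotide reductase that is made in S phase, was at 7.84 and 6.74 in KD hearts against 6.49 and 6.58 in WT hearts (0.76 ± 0.27 SE, limma adjusted p = 0.950). Rrm1, the large subunit of the same enzyme, was at 9.12 and 7.94 in KD hearts against 8.17 and 8.08 in WT hearts. Tyms, thymidylate synthase, was at 7.67 and 7.14 in KD hearts against 7.05 and 7.01 in WT hearts. Both KD hearts were above WT for Rrm2 and Tyms, whereas KD heart 2 had the lowest value for Rrm1. Tk1, the cytosolic thymidine kinase, differed by 0.25.

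Of the cyclins and kinases of G2 and mitosis, 7 of 7 measured members were higher, with a median difference of 0.44, or 0.76 in KD heart 1 and 0.11 in KD heart 2. Ccna2, cyclin A2, which acts from S phase to early mitosis, was at 8.62 and 6.98 in KD hearts against 6.69 and 6.94 in WT hearts (0.99 ± 0.38 SE, limma adjusted p = 0.950). Ccnb2, cyclin B2, a partner of CDK1, was at 8.53 and 7.65 in KD hearts against 7.48 and 7.30 in WT hearts. Plk1, the Polo kinase of mitotic entry and spindle assembly, was at 7.67 and 6.54 in KD hearts against 6.54 and 6.57 in WT hearts. Ccnb2 was above WT in both KD hearts, Ccna2 was so by a narrow margin in KD heart 2, and Plk1 was high in KD heart 1 only. Cdk1, the kinase that drives mitotic entry, differed by 0.33 and Foxm1, a transcription factor of mitotic genes, by 0.08. Aurka and Aurkb, the Aurora kinases of the spindle poles and of the centromeres, differed by 0.21 and 0.44. In KD heart 2, Cdk1 and Foxm1 were at -0.01 and -0.11 from the WT mean, and Aurka and Aurkb at 0.11 and 0.12.

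The spindle checkpoint holds anaphase back until all chromosomes are attached. Its genes were listed together with Cdc20 and Ube2c, which act with the anaphase-promoting complex, a ubiquitin ligase. Of this list 6 of 6 members were higher, with a median difference of 0.54. In KD heart 1 the median was 0.96 and in KD heart 2 it was 0.07. Bub1, a checkpoint kinase of the kinetochore, was at 6.87 and 5.21 in KD hearts against 5.43 and 5.20 in WT hearts (0.73 ± 0.37 SE, limma adjusted p = 1.0). Mad2l1, which binds CDC20 and keeps it inactive, was at 9.76 and 8.55 in KD hearts against 8.37 and 8.69 in WT hearts. Bub1b, BUBR1 of the same inhibitory complex, was at 7.76 and 6.53 in KD hearts against 6.52 and 6.61 in WT hearts. All 3 genes were more than 1 above the WT hearts in KD heart 1 and lay within the WT range in KD heart 2. Ttk, the MPS1 kinase at the top of the checkpoint, Cdc20, the activator of the anaphase-promoting complex, and Ube2c, its ubiquitin-conjugating enzyme, differed by 0.30, 0.34 and 0.51, and each was above WT in both KD hearts.

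Genes of the spindle, the kinetochore and cytokinesis were all higher, 12 of 12, with a median difference of 0.49, or 1.12 in KD heart 1 and 0.10 in KD heart 2. Kif11 (probe set 10462796), the kinesin that pushes spindle poles apart, was at 9.30 and 6.88 in KD hearts against 6.95 and 6.69 in WT hearts (1.28 ± 0.50 SE, limma adjusted p = 0.950). Ect2, the exchange factor that turns on RhoA for the cleavage furrow, was at 8.41 and 6.38 in KD hearts against 6.49 and 6.45 in WT hearts (0.92 ± 0.42 SE, limma adjusted p = 0.998). Tpx2, which activates Aurora A on spindle microtubules, was at 8.55 and 6.96 in KD hearts against 6.64 and 6.94 in WT hearts (0.97 ± 0.34 SE, limma adjusted p = 0.950). KD heart 1 was far above the rest for Kif11, Ect2 and Tpx2, and KD heart 2 lay between the WT hearts for Kif11, just above both for Tpx2 and below both for Ect2. Nusap1, a microtubule-bundling protein of the spindle, was at 7.61 and 6.75 in KD hearts against 6.25 and 6.35 in WT hearts, above WT in both (0.87 ± 0.20 SE, limma adjusted p = 0.871). Cenpe, the kinetochore kinesin that aligns chromosomes, was at 6.88 and 5.71 in KD hearts against 5.56 and 5.57 in WT hearts (0.72 ± 0.26 SE, limma adjusted p = 0.950). The other members were Birc5 (survivin of the chromosomal passenger complex), Kif20a and Kif23 (kinesins of the central spindle), Prc1 (which bundles its microtubules), Anln (anillin of the contractile ring), Cenpf (a kinetochore protein) and Ckap2l (a spindle protein). Their differences were between 0.23 and 0.59. In KD heart 2, Kif20a, Kif23 and Prc1 were below the WT mean, at -0.04, -0.15 and -0.19 from it. Birc5, Anln, Cenpf and Ckap2l were above it there, at 0.20, 0.04, 0.20 and 0.33.

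The genes used to mark proliferating cells, Top2a and Mki67, had a median difference of 1.25, or 2.30 in KD heart 1 and 0.19 in KD heart 2. Top2a (probe set 10390707), DNA topoisomerase II alpha, which untangles chromosomes, was at 9.74 and 6.93 in KD hearts against 7.03 and 6.97 in WT hearts (1.34 ± 0.57 SE, limma adjusted p = 0.956). Mki67 (probe set 10568714), the Ki-67 protein that coats mitotic chromosomes, was at 9.15 and 7.73 in KD hearts against 7.45 and 7.12 in WT hearts (1.15 ± 0.32 SE, limma adjusted p = 0.940). Top2a was low in KD heart 2, below both WT hearts, and a dimmer probe set of the gene was at 3.47 and 3.18 in KD hearts against 3.37 and 3.07 in WT hearts. With both probe sets averaged, the difference of Top2a was 0.72. Mki67 was above WT in both KD hearts. Mns1 (probe set 10586907), a coiled-coil protein of motile cilia and sperm flagella rather than of the division machinery, was at 7.47 and 7.12 in KD hearts against 6.68 and 6.48 in WT hearts (0.72 ± 0.13 SE, limma adjusted p = 0.713). Both KD hearts lay above both WT hearts, and the p of Mns1 had rank 4 among all 19938 genes. The members were chosen with earlier results of these data known, so this rank is a description only. Of 10 markers of airway epithelium and motile cilia, 7 were higher in KD hearts and 3 lower, with differences between -1.06 and 0.13 and a median of 0.07. KD heart 1 lay above both WT hearts for 1 of these 10 markers and below both for 5, where 26.7% and 42.1% of all genes did so. KD heart 2 lay above both for 6 and below both for 1, where 45.8% and 30.5% of all genes did so. The median difference of these markers from the WT mean was -0.05 in KD heart 1 and 0.13 in KD heart 2.

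Promoters were read for 3 kinds of motif known in cell cycle genes, since the median difference in KD heart 1 was larger for the mitotic lists than for the G1 list, of which 5 of 8 members lay above both WT hearts. RefSeq promoters (GRCm38.p6, 250 bases before the start of the gene) were listed for 40 of the 49 measured genes. Only the first listed start of a member was read, and Ccnd3, Mcm7, Prc1 and Ect2 had 2 starts listed. The share over all promoters counted every listed start. The motifs, on either strand, were the CCAAT box (CCAAT), which binds NF-Y, the cell cycle homology region or CHR (TTTGAA), which binds the MuvB complex, and the E2F site. The E2F site was searched as TTCCCGC, as the variant TTGGCGC and as the variant TTCGCGC. Read on the other strand, the CCAAT box can overlap the second of these E2F forms. A CCAAT box was in 16 of 20 promoters of the G2/M, checkpoint and spindle members (80%), in 10 of 17 of the G1 and S phase members (58.8%) and in 33.8% of all 32851 listed promoters. A CHR was in 7 of 20 (35%), in 2 of 17 (11.8%) and in 16% of all promoters. An E2F site was in 1 of 20 (5%), in 6 of 17 (35.3%) and in 6.69% of all promoters. The G1 and S phase members were pooled here, though their medians in KD heart 1 were 0.14 (G1) and 0.62 and 0.82 (S phase). Of the G1 members read, only Cdk2 had a CCAAT box. Of the S phase members read, all but Cdc6, Tyms and Tk1 had one, so the CCAAT box did not set mitotic members apart from those of S phase. Mki67, Top2a and Mns1, which are in neither group, all had a CCAAT box, Mki67 and Top2a had a CHR, and Mki67 and Mns1 had an E2F site. A match of letters is a description and not a binding site.

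Shown here are 4 mitotic members with wide ranges over the hearts and Ccnd3, the G1 member with the widest range. Capitals mark CCAAT boxes and CHR letters on either strand, read 5′ to 3′ on the strand of the gene, and the last base printed lies next to the start. They lie at chr19:37376132-37376381 on the plus strand for Kif11, chr3:27153879-27154128 on the minus strand for Ect2, chr2:127831860-127832109 on the minus strand for Bub1, chr7:80294201-80294450 on the plus strand for Prc1 and chr17:47504801-47505050 on the plus strand for Ccnd3.
Kif11: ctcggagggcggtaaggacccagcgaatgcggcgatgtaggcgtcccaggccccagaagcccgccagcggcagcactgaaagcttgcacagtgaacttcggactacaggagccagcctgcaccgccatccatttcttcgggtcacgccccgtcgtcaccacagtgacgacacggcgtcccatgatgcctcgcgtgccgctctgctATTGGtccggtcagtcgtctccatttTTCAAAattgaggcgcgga
Ect2: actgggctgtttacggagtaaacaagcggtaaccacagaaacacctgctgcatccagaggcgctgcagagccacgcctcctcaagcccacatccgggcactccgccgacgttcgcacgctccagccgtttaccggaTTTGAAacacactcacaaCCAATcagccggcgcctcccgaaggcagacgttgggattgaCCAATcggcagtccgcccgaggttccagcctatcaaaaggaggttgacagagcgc
Bub1: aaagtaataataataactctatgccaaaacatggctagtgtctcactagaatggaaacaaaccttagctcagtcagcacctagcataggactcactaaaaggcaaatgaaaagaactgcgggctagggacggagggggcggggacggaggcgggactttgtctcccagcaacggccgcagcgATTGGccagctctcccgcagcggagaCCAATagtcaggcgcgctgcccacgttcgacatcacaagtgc
Prc1: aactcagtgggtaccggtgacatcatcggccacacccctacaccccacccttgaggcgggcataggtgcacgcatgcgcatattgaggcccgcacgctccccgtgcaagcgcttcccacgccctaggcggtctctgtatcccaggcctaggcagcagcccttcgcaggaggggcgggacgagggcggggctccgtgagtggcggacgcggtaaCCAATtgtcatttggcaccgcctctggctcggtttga
Ccnd3: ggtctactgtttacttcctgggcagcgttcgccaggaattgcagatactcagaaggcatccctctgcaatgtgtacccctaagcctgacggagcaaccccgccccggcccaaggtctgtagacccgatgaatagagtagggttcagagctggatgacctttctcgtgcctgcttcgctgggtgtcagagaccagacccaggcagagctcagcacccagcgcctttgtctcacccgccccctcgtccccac
In Kif11 a CCAAT box read as ATTGG, 45 to 41 bases before the start, was followed by a CHR at 19 to 14. In Ect2 the order was a CHR at 114 to 109 and CCAAT boxes at 96 to 92 and 55 to 51. Bub1 had CCAAT boxes at 68 to 64 (as ATTGG) and at 42 to 38, and Prc1 had 1 at 37 to 33. The Ccnd3 window, at the first of its 2 listed starts, held none of the letters searched.

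Markers of thymocytes and T cells were high in KD heart 1. Of the other immune lists, median differences from the WT mean in that heart were 0.13 for B cells, -0.08 for macrophages and -0.06 for neutrophils. Of 15 measured thymocyte markers, 14 were above both WT hearts in KD heart 1, with a median difference of 3.10, and the median was 0.07 in KD heart 2. The mean level over these markers was 9.63 and 6.96 in the KD hearts against 6.77 and 6.99 in the WT hearts. Rag1, the recombinase subunit of immature lymphocytes, was at 11.68 and 6.73 in KD hearts against 6.51 and 6.60 in WT hearts, and Dntt, the terminal transferase of the same stage, was at 9.64 and 6.19 in KD hearts against 5.58 and 5.86 in WT hearts. The exception was Cd1d1, a lipid-presenting molecule, at 6.36 and 6.13 in KD hearts against 6.09 and 6.53 in WT hearts, and Ptcra, the pre-T cell receptor chain, was close to WT, at 7.66 and 7.80 in KD hearts against 7.52 and 7.55 in WT hearts. T cell markers, 10 measured, had a mean level of 8.85 and 7.14 in KD hearts against 7.09 and 7.33 in WT hearts. No gene of the marker lists is in the cell cycle lists, and the part of thymocyte RNA in the cell cycle values of KD heart 1 was not tested. On the 6 cardiomyocyte arrays the mean over the thymocyte markers was between 5.14 and 5.27. In whole hearts, fewer or more cells of a type and less or more RNA per cell cannot be told apart.

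**Figure D2:**
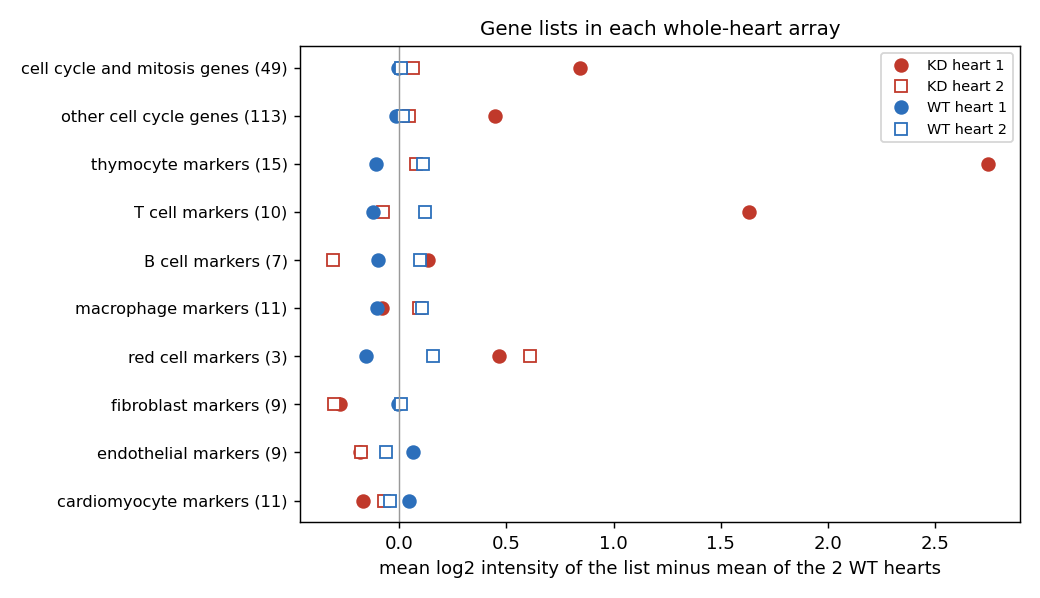
Each row is a gene list with the number of genes measured, and the x axis is the mean log2 intensity of the list in each heart array minus the mean of the 2 WT hearts. Symbols are as in the plot of single genes (red KD, blue WT; filled for heart 1, open for heart 2). KD heart 1 is at 0.84 for the 49 cell cycle genes and 2.75 for thymocyte markers, where KD heart 2 is at 0.06 and 0.08.

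Without KD heart 1, 31 members were higher and 18 lower, where 58.6% of all genes were higher. The median difference was 0.07, against 0.043 over all genes, and 0 members were called, where 0.00502% of all genes were. At an unadjusted limma p under 0.05, with the lone KD array assumed to vary like the other groups, 4 members were higher (Mki67, Nusap1, Ckap2l and Mns1) and 2 lower (Cdk2 and Cdk4), where 5.37% and 4.66% of all genes were. Without KD heart 2, 48 members were higher, with a median of 0.67, and 22 were called, all higher, where 1.52% of all genes were called. Top2a, Ect2 and Bub1 had a negative difference without KD heart 1, of -0.066, -0.091 and -0.098, and positive ones of 2.74, 1.94 and 1.56 without KD heart 2. The 3 measured red cell markers, of 9 listed, were above both WT hearts in both KD hearts, as were 14.2% of all genes. The mean level of these 3 markers was 9.40 and 9.55 in KD hearts against 8.78 and 9.09 in WT hearts. Their part in the members that were high in both KD hearts was not tested.

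In isolated cardiomyocytes the cell cycle genes divided about evenly. Of the 49 members, 23 were higher in KD and 26 were lower, where 50% of all genes were higher. The differences ran from -0.29 to 0.22 around a median of -0.01. On each cardiomyocyte array between 31 and 36 of the 49 members lay below the array median, as 36 and 35 did in WT hearts. Differences of dim genes are compressed. None passed the test: limma called 0% of the 19938 genes, and at an unadjusted p under 0.05 the count was 0 higher and 1 lower, where 0.988% and 1.11% of all genes were. The mean over the members relative to the 3 WT arrays was -0.04, 0.06 and -0.06 in KD cells and 0.02, -0.02 and -0.00 in WT cells, so the groups overlapped. By role, 4 of 8 G1 genes, 6 of 9 replication fork genes and 1 of 4 nucleotide genes were higher. So were 2 of 7 cyclins and kinases of G2 and mitosis, 3 of 6 genes of the checkpoint and anaphase ligase list and 7 of 12 spindle genes.

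The member below the unadjusted threshold was Ckap2l, which was at 5.39, 5.46 and 5.52 in KD cardiomyocytes against 5.71, 5.81 and 5.73 in WT cardiomyocytes (-0.29 ± 0.09 SE, limma adjusted p = 1.0). All 3 KD arrays lay below all 3 WT arrays, as they did for Mcm3, at 5.11, 5.05 and 5.03 in KD against 5.14, 5.36 and 5.14 in WT. Kif23 was the member whose KD arrays all lay above WT, at 5.23, 5.28 and 5.28 in KD against 5.14, 5.13 and 5.17 in WT. These are 1 higher and 2 lower members, where 2.99% and 3.21% of all genes did not overlap in each direction. Mcm4 differed by -0.26, Cenpf by -0.21 and Cdk1 by -0.14, while Mcm6 differed by 0.22, Ube2c by 0.20, Ccnd3 by 0.19 and Cdc45 by 0.15. Their KD and WT arrays overlapped. Top2a was at 4.65, 4.57 and 4.42 in KD against 4.72, 4.62 and 4.63 in WT, and Mki67 differed by -0.08, both with overlapping arrays. The interval of the difference for a typical gene was ± 0.25 in cardiomyocytes and ± 0.31 in hearts (95%, median over all genes). These intervals are not adjusted for the number of genes, and they do not give the size at which a gene would be called.

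**Figure D3:**
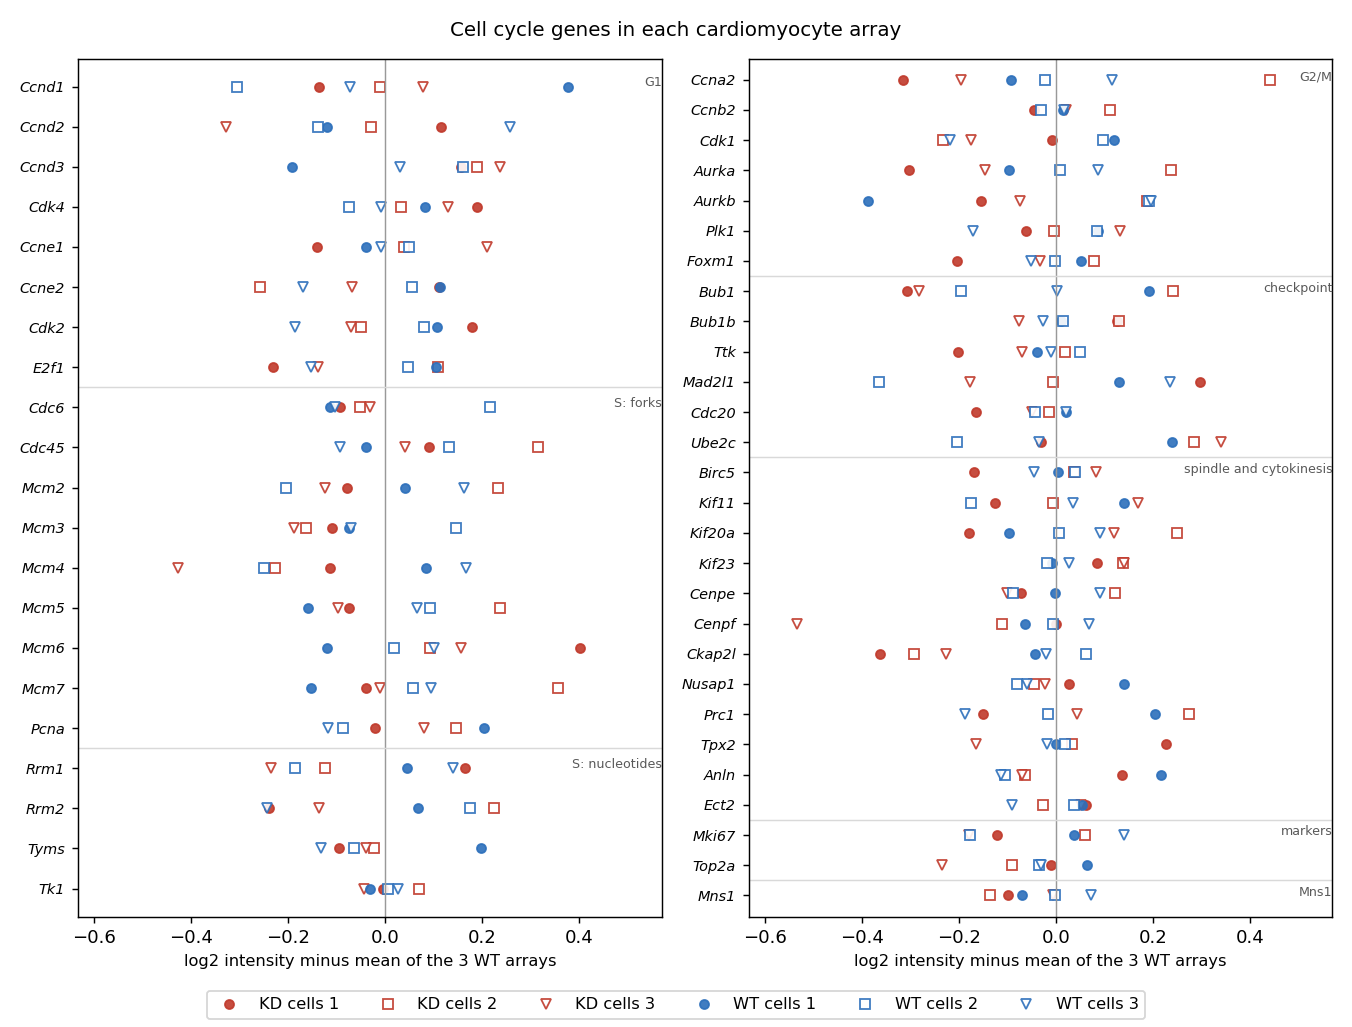
Each row is a gene, grouped by role, and the x axis is its log2 intensity in each cardiomyocyte array minus the mean of the 3 WT arrays. Red symbols are the 3 KD arrays and blue symbols the 3 WT arrays, with circles, squares and triangles for arrays 1, 2 and 3. KD and WT overlap in all genes other than Kif23, Mcm3 and Ckap2l, whose differences are 0.12, -0.15 and -0.29.

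The KD difference in hearts was set against the KD difference in cardiomyocytes in the same fit. Of the 49 members, 45 had a larger value in hearts, where 51.2% of all genes did, and limma called 0% of genes. At an unadjusted p under 0.05, 11 members were more positive in hearts and 0 less, where 1.76% and 1.74% of all genes were. The widest gap was that of Top2a (1.45 ± 0.73 SE, limma adjusted p = 0.999), followed by Kif11 at 1.26, Mki67 at 1.23, Ccna2 at 1.01, Tpx2 at 0.94, Ect2 at 0.89, Nusap1 at 0.89, Bub1 at 0.85, Rrm2 at 0.81 and Mns1 at 0.80. Ckap2l had a gap of 0.65 ± 0.14 (SE, limma adjusted p = 0.999). Without KD heart 1 the gap was 0.046 for Top2a, 0.053 for Kif11, 0.52 for Mki67, 0.19 for Ccna2, 0.14 for Tpx2, -0.12 for Ect2, 0.46 for Nusap1, 0.018 for Bub1, 0.25 for Rrm2, 0.62 for Mns1 and 0.62 for Ckap2l. Mns1 and Ckap2l thus kept most of their gap and Top2a, Kif11, Bub1 and Ect2 did not, and 0 members were called, with 0% of all genes. Without KD heart 2, 19 members were called, all more positive in hearts, where 1.19% of all genes were called. In each of these fits the lone KD heart was assumed to vary like the other groups.

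Between kinds of sample, the sign of a member's difference depended on the scaling, since cardiomyocyte and heart arrays have different medians and labelling manuals. Tissue, labelling and normalization cannot be told apart. With arrays centred on their medians, limma called 64.7% of all genes, 39% higher and 25.8% lower in WT cardiomyocytes than in WT hearts, and of the members 7 were higher and 10 lower. As deposited, 0 members were higher and 47 lower, where 3.87% and 87.3% of all genes were. After quantile normalization 10 were higher and 8 lower, where 30.5% and 28.4% of all genes were. The all-gene median difference was 0.12 centred, 0.01 after quantile normalization and -1.20 as deposited. Under all 3 scalings 20 members were lower in cardiomyocytes, 1 (Pcna) was higher and 28 changed sign.

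The members called lower under all 3 scalings were Tpx2, Mcm3, Tk1, Mcm5 and Ccnd2. Tpx2 was at 4.09 ± 0.02 (SD, n = 3) in WT cardiomyocytes and 6.79 ± 0.21 (SD, n = 2) in WT hearts as deposited, a centred difference of -1.37. The centred differences were -1.05 for Mcm3, -0.89 for Tk1, -0.67 for Mcm5 and -0.58 for Ccnd2, cyclin D2. Pcna was at 9.94 ± 0.18 (SD, n = 3) in WT cardiomyocytes and 9.41 ± 0.08 (SD, n = 2) in WT hearts, with a centred difference of 1.86, and as deposited it was not called (limma adjusted p = 0.0574).

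**Figure D4:**
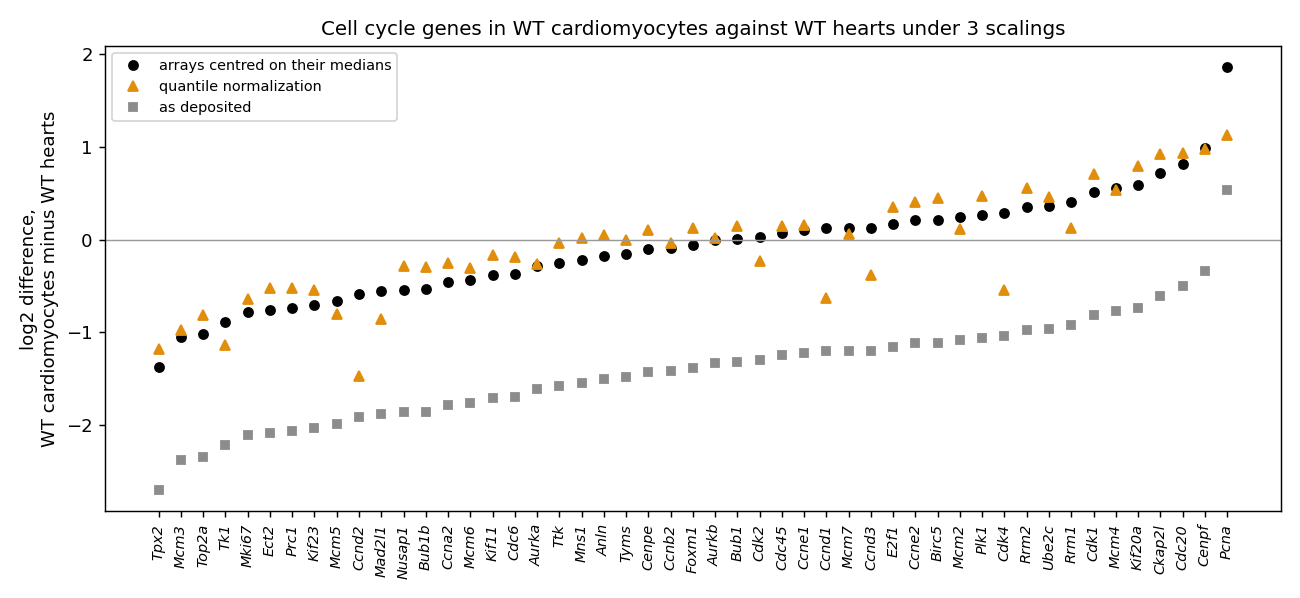
Each column is a gene, ordered by its centred value, and the y axis is the log2 difference of WT cardiomyocytes minus WT hearts. Black circles are arrays centred on their medians, orange triangles quantile-normalized arrays and grey squares the deposited values. The grey squares are below 0 for all genes other than Pcna, while the centred values run from -1.37 for Tpx2 to 1.86 for Pcna.

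Further cell cycle genes, which are not members, were listed by textbook role, and 113 of 118 were measured. In KD hearts 100 were higher and 13 lower, with a median difference of 0.22, and 0 were called. KD heart 1 had a median difference of 0.34 and KD heart 2 of 0.05 from the WT mean. By role, 5 of 6 CDK inhibitors were higher (median 0.04), 13 of 17 pocket proteins, E2F factors and MuvB genes (0.18), 30 of 36 origin and replication genes (0.09), 21 of 22 genes of mitotic entry and exit (0.30) and 31 of 32 genes of the kinetochore, spindle, condensin and cytokinesis (0.37). In cardiomyocytes 63 were higher and 50 lower, with a median of 0.02. In hearts the list of kinetochore, spindle and cytokinesis genes had the largest median of these 5 lists, and the CDK inhibitors the smallest.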

How the data were processed

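Biotin-labelled cDNA of 10 samples had been hybridised to Affymetrix arrays, per the labels' protocols. The deposited values are log2 intensities of 35556 probe sets, which the authors made with RMA and Partek, per the submitters' processing notes, with versions and settings not given in the sources used here. Summarising by RMA compresses differences of dim probes. Array medians differ between hearts and cardiomyocytes, so KD was compared with WT within each kind of sample. Genes were named from the platform annotation: 21789 probe sets had 1 symbol, 1621 several and 12146 were not listed, which left 19938 genes. Columns without a matching sample numbered 0.

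All arrays were fitted in limma 3.58.1 (R 4.3.3) with 4 group means and an intensity trend (6 residual and 6.81 prior degrees of freedom). P-values were two-sided and adjusted by Benjamini-Hochberg across the 19938 genes, with a threshold of 0.05. The fit was tested on simulated data: of 200 genes changed by 1.5 among 19938, the comparison of hearts recovered 198 to 199 over 3 simulated sets and called 12 to 17 others. The simulated noise was independent between genes and arrays, with no array like KD heart 1. These counts therefore do not give the share recovered in the real hearts, where the largest difference, 2.65, was not called. Nothing says that arrays came from separate animals beyond the pooling, so p-values measure the spread between these arrays, and the number of arrays limits precision. No probe-level signal or detection calls were used.

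Values are given per array for the 3 members of each role with the widest range over hearts and in full for the 10 with the largest difference in each comparison, and other members are named by role. The members and lists were chosen with earlier results of these data known. Alternatives were quantile normalization, other scaling, a filter on dim genes, averaged probe sets, each kind alone, other variance settings, a replicate block, and leaving out each array. Array numbers of KD and WT were not treated as pairs in the main fit. The deviations of same-numbered cardiomyocyte arrays correlated at 0.152, 0.131 and -0.052, and those of different-numbered arrays at between -0.188 and 0.066. Whether the numbers pair samples is not settled by these values.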

Additional observations from a re-analysis of the deposited data

Results flagged for a closer look

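Ckap2l, a protein of the mitotic spindle, had KD differences of opposite sign in the 2 kinds of sample, by 0.65 ± 0.14 (SE, limma adjusted p = 0.999). In hearts it was at 6.74 and 6.68 in KD against 6.30 and 6.41 in WT. Both KD hearts lay above both WT hearts, as in 14.2% of all genes. In cardiomyocytes Ckap2l was at 5.39, 5.46 and 5.52 in KD against 5.71, 5.81 and 5.73 in WT. All KD arrays lay below all WT arrays, as in 3.21% of all genes. The share of all genes that lay apart in opposite directions in the 2 kinds of sample was not counted. The difference between the 2 effects was tested and did not pass the adjusted threshold. Groups of 2 and 3 arrays are too small for a test of a single array far from the others.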

How the results depend on the processing

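Leaving out each array in turn gave 0 to 303 genes called in KD against WT hearts, where the full fit called 0, and 0 to 237 for the difference between the heart and cardiomyocyte effects, where the full fit called 0. Both high counts were without KD heart 2, and the lone KD array that remained was assumed to vary like the other groups. Over the same fits the difference in hearts was -0.066 to 2.74 for Top2a, -0.091 to 1.94 for Ect2 and -0.098 to 1.56 for Bub1, negative without KD heart 1. With a replicate block 1 gene was called in hearts, which was no member, and the block changed no other call. Same-numbered hearts correlated at 0.234 and different-numbered hearts at -0.234. With 2 arrays per group these values must mirror each other, so they do not show whether hearts were paired. In WT cardiomyocytes against WT hearts a filter on dim genes left 7068 genes called of 10059 tested, against 12908, since fewer genes were tested, and 14 members passed that filter. The calls there split into 7770 higher and 5138 lower with centred arrays, 6080 and 5656 after quantile normalization and 772 and 17403 as deposited. Members called there numbered 17 of 49 with centred arrays, 47 of 49 as deposited and 6 of the 14 that passed the filter. The 10 largest member differences in hearts were larger without KD heart 2, from 1.30 for Nusap1 to 2.74 for Top2a. They had been picked from the full fit, which held KD heart 1, so this is not a separate result. The members' median difference in cardiomyocytes, -0.01 in the full fit, was 0.015 over the 14 members that passed the filter, 0.013 without KD cardiomyocyte array 1 and 0.016 without array 3, with 27 and 25 of 49 members higher without those arrays. With the probe sets of a gene averaged, Top2a differed by 0.72 in hearts. Signal over background could not be read from these values, and differences of dim genes are compressed.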

Other observations

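Of the further cell cycle genes, named here are up to 2 from each list by size of their difference in KD hearts. They were Stmn1, a tubulin-binding protein, at 0.89, Fbxo5, an inhibitor of the anaphase-promoting complex, at 0.80, Dlgap5, a spindle protein, at 0.79, Dbf4, the activator of the CDC7 kinase, at 0.75, Uhrf1, which maintains DNA methylation at replication forks, at 0.61, E2f8, a repressor of the E2F family, at 0.56, Incenp, the scaffold of the chromosomal passenger complex, at 0.56, and E2f2, an activator of the same family, at 0.45. Limma called 0 of the 113, with 33 higher and 1 lower at an unadjusted p under 0.05, where 2.44% and 2.49% of all genes were. The CDK inhibitors Cdkn2d and Cdkn1b differed by 0.11 and -0.10.

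In whole hearts markers of several resident cell types were lower in KD: all 9 of fibroblasts, all 9 of endothelium, 7 of 8 of smooth muscle and pericytes and all 11 of ventricular cardiomyocytes, with median differences of -0.29, -0.20, -0.15 and -0.10. In the same order, medians from the WT mean were -0.26, -0.16, -0.20 and -0.14 in KD heart 1. They were -0.31, -0.25, -0.10 and -0.05 in KD heart 2. Limma called 0 of these markers, with 2, 1, 1 and 1 lower at an unadjusted p under 0.05, where 2.49% of all genes were.

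For 3 members the annotation gave a further probe set. The dimmer probe set of Top2a was at 3.47 and 3.18 in KD hearts against 3.37 and 3.07 in WT hearts, so the 2 KD hearts lay much closer together there than on the probe set kept. The further probe set of Tk1 was at 6.84 and 6.90 in KD hearts against 6.58 and 6.75 in WT hearts, and that of Pcna at 10.29 and 9.06 in KD hearts against 9.46 and 9.35 in WT hearts. Both KD hearts were above WT for Tk1 and only KD heart 1 for Pcna, as on the probe sets kept.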
